A study of Zea mays with 12 samples.

Results

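Gene models of maize whose RNA was seen almost only on polysomes were few: 12 of 43788 in the inbred line B73 and 15 of 37843 in the inbred line Mo17. A gene model is a predicted gene of the annotation, here one with a Zm identifier. A model was taken when its FPKM (fragment counts divided by gene length and library size) was under 1 in both total RNA libraries and at least 5 in both polysome libraries of the same line. The lines were treated apart, because the files do not pair their identifiers. The members were thus chosen by their RNA and polysome levels, so these levels are given below as a description, with no test of polysome against total RNA.

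The 12 samples came from whole seedlings of B73 and of Mo17, 14 days old, grown in a cycle of 16 h light (28 °C) and 8 h dark (25 °C), with no treatment named. Each line had 2 RNA-seq, 2 polysome profiling and 2 m6A-seq samples. The labels do not say that the 2 replicates of a group came from separate plants, so the spread between them may be technical. The tables hold FPKM without counts, so depth is unknown and values carry no counting interval. In whole seedlings, fewer cells with a transcript and less of it per cell cannot be told apart, and with unnamed genes the tissue could not be checked against markers.

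Polysomes are mRNAs that carry several ribosomes at the same time, and polysome-bound RNA is taken as a measure of which mRNAs are being translated. It is a fraction of the RNA of the cell, so a transcript on polysomes is also part of total RNA. N6-methyladenosine (m6A) is a methyl mark on adenosines of mRNA, set in plants by a complex around the METTL3-like enzyme MTA, and found mostly near stop codons and in 3′ untranslated regions. In m6A-seq an antibody pulls down fragments with the mark, and a peak is a stretch where such fragments are enriched. The files and the reference table give no names or functions for the Zm models described here, so no roles can be given.

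The members were a small part of both pools their rule draws on. They made up 0.0485% of the 24762 B73 models with an RNA FPKM under 1 in both libraries, and 0.127% of the 9436 with a polysome FPKM of at least 5 in both. In Mo17 they made up 0.09% of 16662 and 0.145% of 10352. Their summed FPKM came to 0.0339% and 0.0321% of the Zm sum in the polysome libraries of B73, and to 0.0177% and 0.0163% in those of Mo17. None of the 1789 other features of the B73 table (ENSRNA features and microRNA genes) passed the same thresholds. The FPKM of all features summed to between 665885 and 1157671 per library. Over Zm models alone, the B73 sums were 452783 and 438866 in RNA and 673882 and 693258 in polysome RNA. The Mo17 sums were 665885 and 669811 in RNA and 800399 and 793281 in polysome RNA. Zm models thus had lower sums in RNA than in polysome RNA, more so in B73, and the FPKM were used as listed. In B73 all features summed to 1147928 and 1157671 in RNA and to 916681 and 934245 in polysome RNA. Features without a Zm identifier thus held a larger part of the FPKM in B73 RNA than in B73 polysome RNA.

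**Figure D1:**
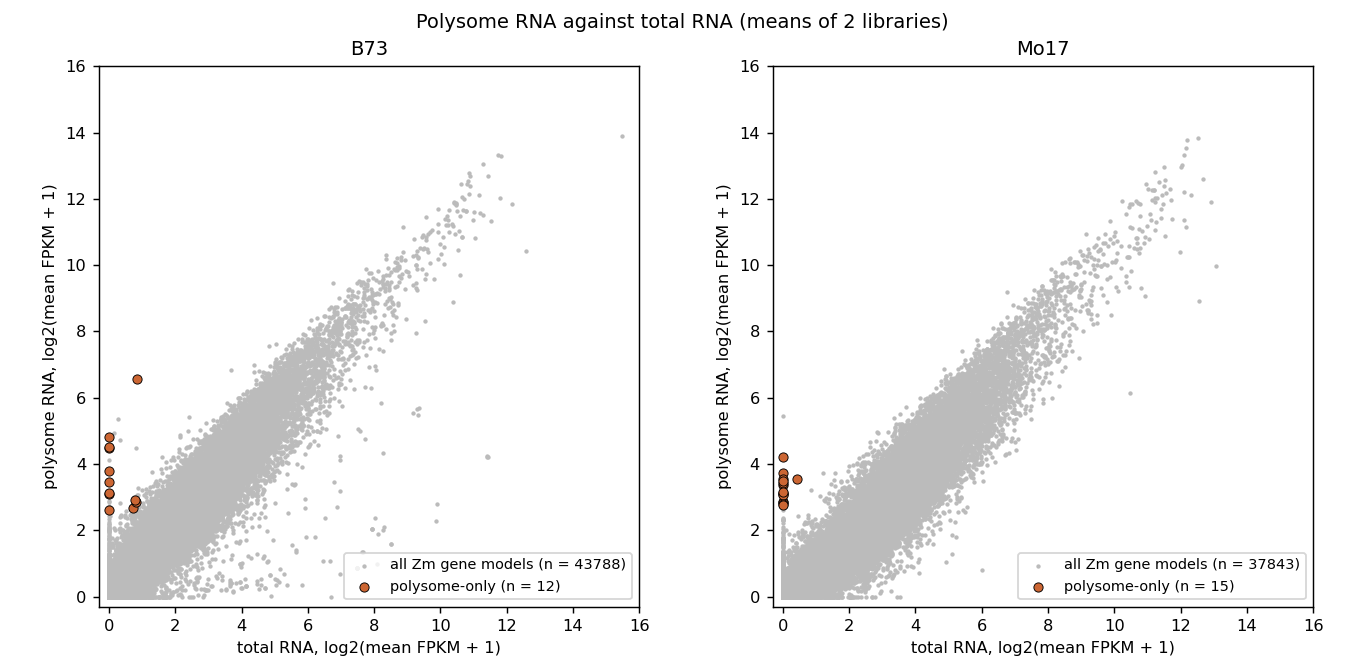
Mean polysome FPKM against mean total RNA FPKM on a log2(FPKM + 1) scale for all Zm gene models (grey) and the polysome-only models (orange), B73 left and Mo17 right, each point the mean of 2 libraries. The 12 and 15 members lie at the left edge, above the bulk of models, and 1 B73 model stands well above the other members at a mean polysome FPKM of 93.9.

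The B73 members had RNA at or near 0 in both libraries, or RNA between 0.564 and 0.995 in both. RNA was listed at 0 in both libraries for 7 members, at 0 in a single library for 1, and above 0 in both for 4. The strongest member was Zm00001d045578 (chromosome 9, 27179112 to 27180859, plus strand, B73 RefGen_v4). Its RNA FPKM was 0.566 in replicate 1 and 0.995 in replicate 2, and its polysome FPKM was 107 and 80.4. Its mean polysome level was 120 times its mean RNA level, and its level in replicate 2 of RNA was the closest to the limit of 1 among the B73 members. With libraries scaled to an equal sum over Zm models, or by the median of log ratios, it was no longer a member, and the B73 members then numbered 6 or 7.

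The next was Zm00001d027021 (chromosome 4, 235760167 to 235761769, plus strand). It was listed at 0 and 0.00221 in RNA and at 26.7 and 27.0 in polysome RNA, so its polysome replicates were 1.01 times apart. Zm00001d035625 (chromosome 6, 37482838 to 37483682, minus strand) was at 0 in both RNA libraries and at 17.4 and 26.3 in polysome RNA. Zm00001d017489 (chromosome 5, 197377558 to 197378986, plus strand) was at 0 in both RNA libraries and at 14.5 and 28.3 in polysome RNA, the widest gap between polysome replicates among all members of both lines, at 1.95 times. Zm00001d001823 (chromosome 2, 1523935 to 1526867, minus strand) was at 0 in both RNA libraries and at 15.2 and 10.6 in polysome RNA. These 5 models had mean polysome levels above 10, and the other 7 did not.

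Of the weaker B73 members, 4 had RNA listed at 0 in both libraries. Zm00001d006592 (chromosome 2, plus strand) had polysome FPKM of 7.53 and 12.4, and Zm00001d036467 (chromosome 6, plus strand) had 9.43 and 5.92. Zm00001d003566 (chromosome 2, minus strand) had polysome FPKM of 8.34 and 6.69, and Zm00001d033392 (chromosome 1, plus strand) had 5.24 and 5.13. Their replicates had no shared direction: replicate 1 was the higher in 3 of them and replicate 2 in Zm00001d006592.

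The other 3 had RNA above 0 in both libraries. Zm00001d036195 (chromosome 6, plus strand) had RNA FPKM of 0.758 and 0.716 and polysome FPKM of 5.13 and 8.10. Zm00001d013919 (chromosome 5, minus strand) had 0.564 and 0.958 in RNA and 5.62 and 6.85 in polysome RNA. Zm00001d003640 (chromosome 2, plus strand) had 0.574 and 0.742 in RNA and 5.73 and 5.08 in polysome RNA. Polysome means were 8.97, 8.19 and 8.22 times RNA means, far below the ratio of Zm00001d045578. Over all 12 members the higher polysome replicate exceeded the lower by a median of 1.38 times, and by over 1.5 times in 5.

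The Mo17 members were nearly all listed at 0 in total RNA: 14 of 15 in both libraries and the last in 1 library. Their polysome levels covered a narrower range, with means from 5.80 to 17.4. Zm00014a_014255 (chromosome 8, 38931020 to 38932899, plus strand, as the Mo17 files list it) had the highest, with polysome FPKM of 17.4 and 17.5. Zm00014a_005275 (chromosome 10, 122023340 to 122028212, plus strand) followed with 12.8 and 11.99. Zm00014a_031117 (chromosome 8, 132292123 to 132295141, plus strand) was the member with listed RNA, at 0 and 0.685, and had polysome FPKM of 11.6 and 10.02.

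The next 2 members, Zm00014a_043585 and Zm00014a_006477, also had means above 10. Zm00014a_043585 (chromosome 2, 167916978 to 167921495, plus strand) had polysome FPKM of 11.7 and 9.82. Zm00014a_006477 (chromosome 9, 28308046 to 28310766, plus strand) had 11.9 and 8.44. The remaining 10 members had means under 10 and were all at 0 in both RNA libraries. Zm00014a_004386 had polysome FPKM of 10.6 and 9.16, and Zm00014a_041513 had 11.5 and 7.31, the widest gap between replicates in Mo17, at 1.57 times.

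The other 8 Mo17 members had polysome replicates between 1.04 and 1.28 times apart. Zm00014a_012737 had 7.82 and 8.12, Zm00014a_043141 had 7.54 and 7.84, and Zm00014a_012981 had 7.64 and 7.38. Zm00014a_022986 had 6.74 and 7.89, Zm00014a_041391 had 6.51 and 6.01, and Zm00014a_011610 had 6.94 and 5.42. The lowest means belonged to Zm00014a_041265, at 5.80 and 6.19, and Zm00014a_040496, at 5.57 and 6.03. Over the 15 members the higher polysome replicate exceeded the lower by a median of 1.08 times, and 8 members had replicates within 10%, against 2 of 12 in B73. The same median over the other models with a polysome FPKM of at least 5 in both libraries was 1.20 in B73 and 1.11 in Mo17.

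Members had middling to high polysome levels for their line. Ranked over all Zm models, they stood between the 75.8th and 98.1th percentile in polysome replicate 1 of B73 and between the 72.4th and 86.9th in that of Mo17. Their median of mean polysome FPKM was 8.81 in B73 and 7.97 in Mo17, against 16.4 and 16.1 for the other models with at least 5 in both polysome libraries. The lower ends of these ranges are set by the limit of 5.

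Models on either side of the polysome limit lay close to it in their lower polysome replicate. At the RNA limit the same held for the higher RNA replicate in B73 but not in Mo17. In B73, Zm00001d003640 was the member nearest the polysome limit, at 5.08 in replicate 2, and Zm00001d000482 just missed it at 5.32 and 4.85. Zm00001d044216 just missed the RNA limit, with 0.673 and 1.03, at polysome FPKM of 8.30 and 6.52. In Mo17, Zm00014a_011610 was the nearest member, at 5.42, and Zm00014a_028273, at 0 in both RNA libraries, just missed with 4.96 and 5.33. The Mo17 model nearest the RNA limit from above was Zm00014a_002244, with RNA of 1.47 and 1.68 and polysome FPKM of 7.12 and 5.01. Between 1 and 1.5 in the higher RNA library stood 10 models of B73 and 0 of Mo17 with at least 5 in both polysome libraries, so the Mo17 members were set apart from the next models in RNA level and the B73 members near the limit were not.

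A single pair of libraries chose more models than both pairs held. With replicate 1 of RNA and of polysome RNA alone, 86 B73 models passed the thresholds, and 12 of them passed in replicate 2. With replicate 2 alone 48 passed, and the same 12 passed in replicate 1. In Mo17, 39 passed in replicate 1 and 52 in replicate 2, with 15 in common. In the replicate that did not choose, polysome FPKM exceeded RNA FPKM for 61 of the 86 and 38 of the 48 models in B73, and for 25 of the 39 and 38 of the 52 in Mo17. The 86 had a median polysome FPKM of 3.86 there, against 1.13 in RNA, and the 48 had 6.59 against 1.41. For the 39 the medians were 7.89 and 0.685, and for the 52 they were 7.59 and 2.47. All of these counts and medians include the 12 and 15 members, whose polysome FPKM exceeds their RNA FPKM by the rule. No share over all Zm models was computed, so these values are a description only.

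An FPKM of 0 in these tables need not mean that no RNA was present. Of the B73 models with at least 5 in both polysome libraries, 13 were at 0 in one RNA library and at 5 or more in the other, beside the 7 members at 0 in both. In Mo17 the numbers were 24 and 14. Over all Zm models with at least 5 in at least 1 RNA library, the share at 0 in the other was 0.237% in B73 and 0.534% in Mo17. How many of the 21 members at 0 owe it to the estimate was not tested.

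Many members lay over other features. In B73, 5 of 12 members overlapped another feature by at least 1 bp (41.7%), where 10.8% of all Zm models did. In Mo17, 4 of 15 did (26.7%), against 7.97% of all Zm models. The same held for 2980 of the 24750 other models with RNA under 1 in B73 and for 1094 of the 16647 in Mo17, and for 7.80% and 8.96% of the other models with polysome FPKM of at least 5. Members that overlapped another feature or lay within 2000 bp of one numbered 10 of 12 in B73 and 9 of 15 in Mo17, against 41.7% and 34.7% of all Zm models. These positions were looked at with the members known, and no test was made.

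The 2 strongest B73 members lay wholly inside longer models on the same strand. All 1748 bp of Zm00001d045578 lay in Zm00001d045577 (27179019 to 27181458, plus strand), which had RNA FPKM of 24.5 and 25.1 and polysome FPKM of 1.26 and 1.44. The outer model was thus high where the inner was low, and low where the inner was high, in all 4 libraries. All 1603 bp of Zm00001d027021 lay in Zm00001d027020 (235753192 to 235761802, plus strand), at 68.1 and 82.8 in RNA and 109 and 81.2 in polysome RNA. Here the outer model was high in both assays. A stretch of 69 bp of Zm00001d027021 also lay in Zm00001d053593, on the same strand, at 159 and 147 in RNA and 150 and 152 in polysome RNA. The levels of these overlapping models are uncertain: spans include introns, exons were not used here, and whether reads were split between the models was not tested. Of all Zm models 2.59% lay inside a same-strand model in B73, and 0 of 37843 in Mo17, whose table has no same-strand overlaps.

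The other 3 overlaps in B73 were partial or held microRNA genes. Zm00001d013919 shared 386 bp with Zm00001d013918 on the other strand, which was at 82.7 and 81.7 in RNA and 117 and 142 in polysome RNA. Zm00001d036195 shared 215 bp with Zm00001d036194 on the other strand, whose levels were at most 0.312 in the 4 libraries. Zm00001d003640, with a span of 13006 bp, held MIR2118b (118 bp) and MIR2118d (148 bp) on its own strand. MIR2118 genes give the microRNA miR2118, known in grasses for triggering phased small RNAs in anthers. Both precursors were listed at 0 in all 4 libraries, apart from 0.0328 for MIR2118b in RNA replicate 1.

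In Mo17 the 4 overlaps were all with models on the other strand, and 3 members lay wholly inside such a model. Zm00014a_041513 lay inside Zm00014a_041519, which had RNA FPKM of 31.5 and 28.1 and polysome FPKM of 64.3 and 63.5. Zm00014a_012981 lay inside Zm00014a_012974, at 7.18 and 6.78 in RNA and 3.82 and 3.77 in polysome RNA. Zm00014a_004386 lay inside Zm00014a_004397, at 3.93 and 3.42 in RNA and 2.14 and 2.21 in polysome RNA. Zm00014a_022986 shared 3824 of its 3859 bp with Zm00014a_022982, at 0 in both RNA libraries and at 0.180 and 0.536 in polysome RNA. The strand setting of the counting was not given in the sources used here, so reads of such pairs cannot be told apart. In both polysome libraries the partner was above the member for Zm00014a_041513 and below it for the other 3. Of all Mo17 models 2.15% lay inside a model on the other strand.

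Other members had a neighbour of nearly the same span. A like-span neighbour was defined, after the values had been seen, as a Zm model on the same strand within 500 kb, not overlapping, whose span differed by at most 5 bp. Such neighbours were found for 2 of 12 members in B73 (16.7%, against 5.84% of all Zm models) and for 5 of 15 in Mo17 (33.3%, against 3.92%). Their sequences were not compared here, so whether they are copies that share reads was not tested.

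In B73, Zm00001d003566 and Zm00001d003567, 68608 bp apart, both spanned 2014 bp. The neighbour was at 7.33 and 6.06 in RNA, where the member was at 0, and at 10.6 and 9.26 in polysome RNA. Zm00001d036467 and Zm00001d036464 both spanned 819 bp, and the latter was at 0 and 4.07 in RNA and at 7.19 and 4.51 in polysome RNA. The neighbour's RNA replicates thus disagreed.

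In Mo17, the neighbour of Zm00014a_031117, Zm00014a_017598, was at 3.87 and 0 in RNA, the reverse of the member's 0 and 0.685, and at 6.32 and 14.8 in polysome RNA. The neighbour of Zm00014a_041265, Zm00014a_041583, had the same span of 3239 bp and the same pattern, with 0 in both RNA libraries and polysome FPKM of 4.72 and 5.88, so it missed the limit in a single library. The neighbour of Zm00014a_022986, Zm00014a_031244, was at 0 in both RNA libraries and at 4.86 and 0 in polysome RNA. Of the 2 neighbours of Zm00014a_006477, Zm00014a_006476 was at 0 in both RNA libraries and at 0 and 8.16 in polysome RNA, and Zm00014a_006475 was at 0 in all 4. The neighbour of Zm00014a_004386, Zm00014a_004374, was expressed in both assays, at 16.2 and 18.6 in RNA and 24.0 and 20.8 in polysome RNA.

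**Figure D2:**
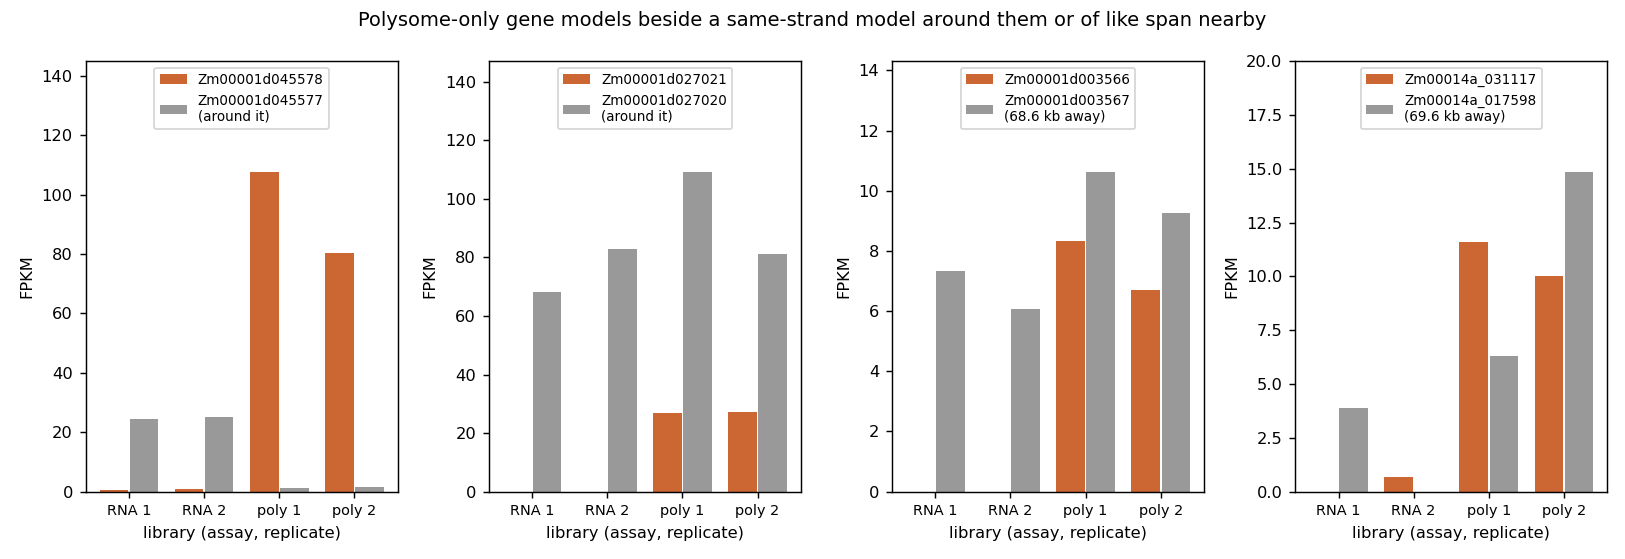
FPKM of 4 polysome-only gene models (orange) and of a second model (grey) in each of the 4 libraries of the line: the same-strand model around Zm00001d045578 and Zm00001d027021, and the like-span neighbour of Zm00001d003566 and Zm00014a_031117. Zm00001d045577 is at 24.5 and 25.1 in RNA and at 1.26 and 1.44 in polysome RNA, the reverse of the member inside it, while Zm00001d003567 is above 6 in all 4 libraries.

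Members with neither an overlap nor a like-span neighbour numbered 5 of 12 in B73 and 8 of 15 in Mo17. An overlap or a like-span neighbour was thus present for 58.3% and 46.7% of members, against 15.3% and 11.7% of all Zm models. The 5 in B73 were Zm00001d035625, Zm00001d017489, Zm00001d001823, Zm00001d006592 and Zm00001d033392, all at 0 in both RNA libraries. The 8 in Mo17 were Zm00014a_014255, Zm00014a_005275, Zm00014a_043585, Zm00014a_012737, Zm00014a_043141, Zm00014a_041391, Zm00014a_011610 and Zm00014a_040496, also at 0 in both. Members without these neighbours therefore included the strongest of Mo17 and 3 of the 5 strongest of B73.

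Members did not sit in clusters. With a gap of at most 100 kb between neighbouring members, 0 of 12 and 0 of 15 lay in a cluster, and no 2 members were next to each other in gene order. The closest pair in B73, Zm00001d003566 and Zm00001d003640 on chromosome 2, was 3.12 Mb apart. The closest in Mo17, Zm00014a_041265 and Zm00014a_012737 on chromosome 8, was 4.74 Mb apart.

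By chromosome, the members were uneven but few. In B73, 4 lay on chromosome 2, 3 on chromosome 6, 2 on chromosome 5 and 1 each on chromosomes 1, 4 and 9. Chromosome 2 holds 12.3% of the Zm models and chromosome 6 holds 8.34%. In Mo17, 5 lay on chromosome 8, which holds 9.07% of the models, 3 on chromosome 3, 2 on chromosome 9, and 1 each on chromosomes 1, 2, 6, 7 and 10. The plus strand held 8 of the 12 and 11 of the 15, where it held 22289 of all 43788 Zm models of B73 and 18899 of all 37843 of Mo17.

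The median span of the members was between that of the other models with low RNA and that of the other models high on polysomes. The median span, introns included, was 1675.5 bp in B73 (quartiles 1018 and 2319 bp) and 1925 bp in Mo17 (1070.5 and 3129 bp). The other models with RNA under 1 had medians of 1482 and 1411 bp, the other models with polysome FPKM of at least 5 had 3186 and 3410 bp, and all Zm models had 2214 and 2489 bp. Upper quartiles did not follow this order: that of the members was below the 3223 and 3287 bp of the other models with RNA under 1. The shortest members were Zm00001d033392 at 647 bp and Zm00014a_012737 at 536 bp. The longest were Zm00001d036195 at 22115 bp and Zm00014a_005275 at 4873 bp. Of the 27 members, Zm00001d036195 and Zm00001d003640 exceeded 5000 bp, both B73 models with RNA FPKM between 0.574 and 0.758. Differences in span were not tested, since genes are not replicates.

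The m6A-seq samples were not used to choose the members, but the peak lists are named as IP against CK, the label of the RNA-seq samples. If the control was this RNA, which the rule held under 1, peaks and folds are not independent of the rule. This was not tested. A model was counted as having a peak when a summit lay in its span and in no other feature. In Mo17, 6 of 15 members (40.0%) had a peak in both m6A replicates and the other 9 had one in neither. All Zm models of Mo17 had such a peak in 22.9% of cases, the other models with RNA under 1 in 1.51%, and the other models with polysome FPKM of at least 5 in 49.8%. In B73, 2 of 12 members (16.7%) had a peak in both replicates and 10 in neither, against 23.1%, 3.56% and 54.6% in the same 3 sets. The other models with RNA under 1 were mostly near 0 in polysome RNA too. The upper quartile of their mean polysome FPKM was 0.0857 in B73 and 0.0417 in Mo17.

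Each replicate gave the same picture. In Mo17 the 2 lists put a peak in 40.0% and 40.0% of members and in 2.02% and 1.79% of the other models with RNA under 1. In B73 the shares were 16.7% and 16.7% of members and 4.23% and 4.09% of the other models with RNA under 1. Both m6A samples of a line score the same genes, so their closeness shows technical agreement and says nothing of the spread between genes. The member shares rest on 6 and 2 genes, and no test was made, since genes are not replicates.

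**Figure D3:**
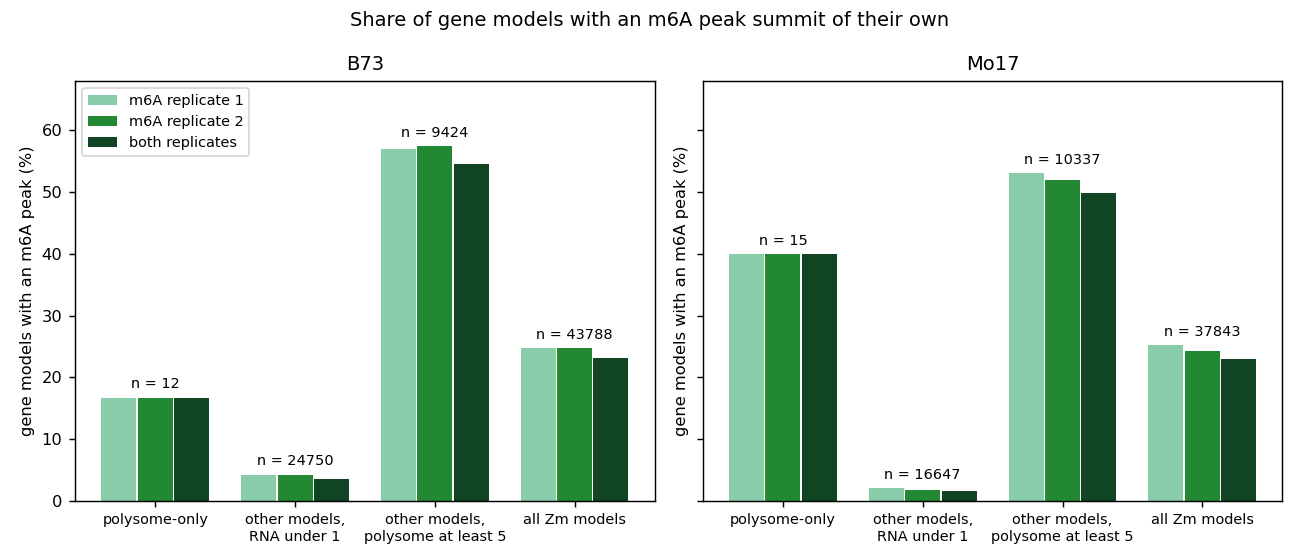
Percent of gene models with an m6A peak summit in their span alone, in m6A replicate 1, replicate 2 and both, for polysome-only models, the other models with RNA FPKM under 1 in both libraries, the other models with polysome FPKM of at least 5 in both, and all Zm models (n above the bars). Members stand at 16.7% in B73 and 40.0% in Mo17, above the other models with low RNA and below the other models high on polysomes.

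The share with a peak also differed with span. Among Mo17 members of 2000 to 4999 bp, 4 of 7 had a peak in both replicates (57.1%), where the other models with low RNA had 1.59% and those high on polysomes 57.0%. Among the 8 shorter Mo17 members 2 had one, 1 under 1000 bp and 1 of 1000 to 1999 bp, where the other models high on polysomes had 2.81% and 12.6% in these classes and all Zm models had 0.604% and 3.78%. In B73, 0 of the 7 members under 2000 bp had a peak in both replicates, where all Zm models had 0.692% and 4.81% in the same classes. A peak in both was present in 1 of the 3 members of 2000 to 4999 bp and in 1 of the 2 longer ones. The other B73 models with low RNA had a peak in 3.41% and 17.4% of cases in these 2 upper classes, and those high on polysomes in 66.4% and 85.9%.

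Of the 8 members with a peak in both replicates, 6 were at 0 in both total RNA libraries, as were 21 of all 27 members. Zm00001d003566 had a summit 152 and 151 bp from its 3′ end, with folds of 12.4 and 7.88; these folds are enrichments given by the authors. Its like-span neighbour Zm00001d003567 had one at 152 and 153 bp, with folds of 11.7 and 4.65. The summits thus lay within 2 bp of each other relative to the 3′ ends of both models, while RNA was listed for the neighbour alone. Zm00001d036195, the longest member, had 2 places with a summit in both replicates. One lay near its 5′ end, at 15.7% and 15.3% of the span (folds 9.15 and 9.49), and the other 616 and 598 bp from its 3′ end (folds 6.19 and 7.49).

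In Mo17 the summits of the 6 members lay 202 to 287 bp from the 3′ end, counting in each replicate the summit that both replicates shared. Zm00014a_014255, the strongest member, had folds of 2.96 and 6.78 at 287 and 276 bp. Zm00014a_043585 had folds of 8.28 and 6.35 at 266 and 280 bp, and Zm00014a_031117 had 7.16 and 6.63 at 203 and 202 bp. Zm00014a_011610 had folds of 7.44 and 8.70 at 215 and 214 bp, which is at 77.0% and 77.1% of its 935 bp. Zm00014a_040496 had 5.08 and 7.76 at 234 and 235 bp. Zm00014a_041265 had 7.11 and 5.28 at 208 and 211 bp, and 2 further summits in replicate 2 alone, at 454 and 1769 bp. Its like-span neighbour Zm00014a_041583 had summits at 210 and 1763 bp in replicate 1 and at 246 and 1787 bp in replicate 2. The like-span neighbour of Zm00014a_031117, Zm00014a_017598, had a summit at 149 bp in replicate 1 alone. Whether such peaks come from shared reads was not tested. Over all summits, the median distance to the 3′ end was 224.5 and 255.5 bp for the Mo17 members, 307 and 297 bp for the other Mo17 models with polysome FPKM of at least 5, and 379 and 356 bp for those with RNA under 1. The 4 and 3 summits of the B73 members, most of them in Zm00001d036195, had medians of 6188 and 598 bp.

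The median of the best fold per model was 7.14 and 6.70 over the 6 Mo17 members, against 8.07 and 7.54 for the other models with low RNA and 6.41 and 6.78 for those high on polysomes. For the 2 B73 members it was 10.8 and 8.69, against 8.43 and 8.89 for the other models with low RNA and 6.53 and 6.999 for those high on polysomes. The highest fold of a member was 12.4, that of Zm00001d003566 in replicate 1, which exceeded 87.3% of the peaks of its list. The lowest was 2.96, that of Zm00014a_014255 in replicate 1, which exceeded 3.66%.

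Some members had a summit that other features share, which was not counted above. Zm00001d045578 had one 282 and 281 bp from its 3′ end with folds of 2.60 and 2.04, inside the span of Zm00001d045577 as well. Zm00001d013919 had one in the part it shares with Zm00001d013918, with folds of 4.26 and 4.48. In Mo17, Zm00014a_012981 (folds 6.74 and 5.26) and Zm00014a_022986 (folds 8.22 and 6.30) had such a summit in both replicates, and Zm00014a_004386 had one in replicate 1 alone. With shared summits counted, 4 of 12 and 8 of 15 members had a summit in both replicates, against 24.0% and 23.6% of all Zm models.

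A summit just outside the span was found for Zm00014a_006477, 105 and 103 bp past its 3′ end and in no feature, with folds of 7.62 and 9.15. Zm00001d006592 had one 239 and 249 bp past its 3′ end, but inside Zm00001d006593 on the other strand, which starts 128 bp away and had RNA of its own at 11.8 and 9.005. No peak lay within 2000 bp of Zm00001d027021, Zm00001d017489, Zm00001d001823, Zm00001d036467, Zm00001d003640 and Zm00001d033392 in B73, or of Zm00014a_005275, Zm00014a_012737, Zm00014a_043141 and Zm00014a_041391 in Mo17. The lack of a peak does not show a lack of m6A.

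**Figure D4:**
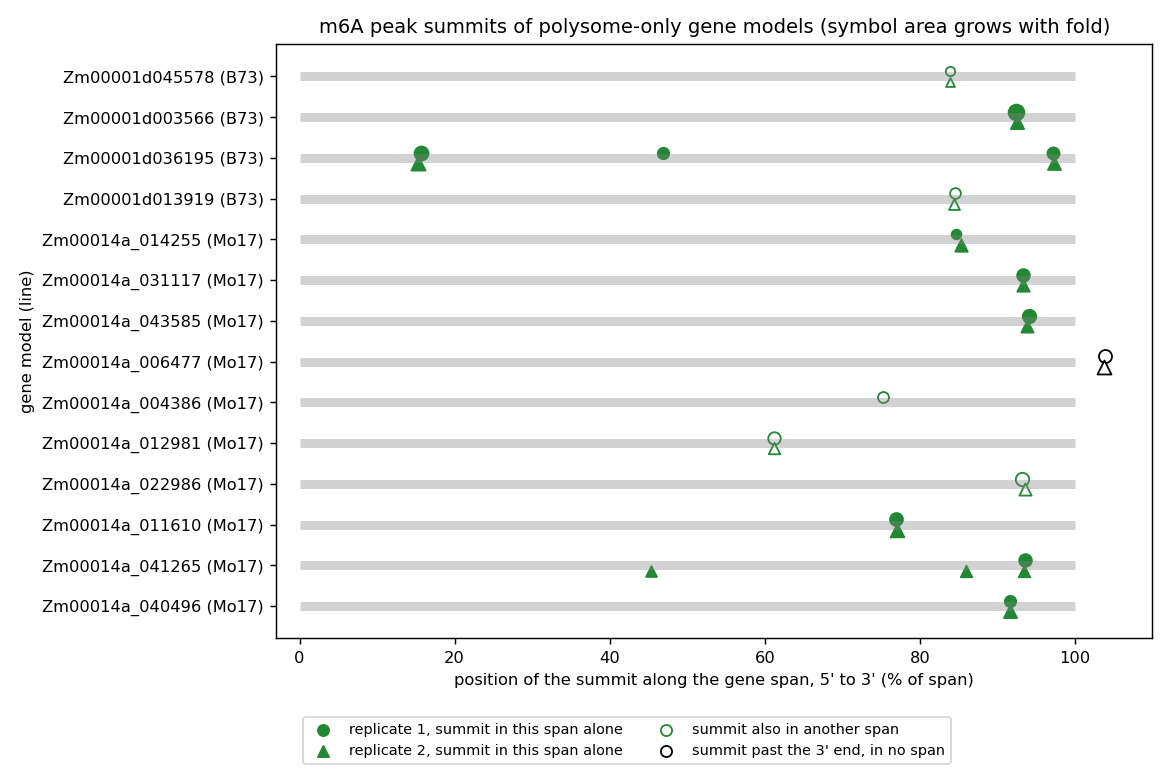
Position of m6A peak summits along the span of the polysome-only models that have one, from the 5′ end (0%) to the 3′ end (100%), replicate 1 as circles and replicate 2 as triangles; open symbols are summits that another span shares or, in black, that lie past the 3′ end. Most summits lie towards the 3′ end, while Zm00001d036195 also has summits at 15.7% and 15.3% of its span.

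The members with neither an overlap nor a like-span neighbour were also looked at for peaks. Models of like sequence farther than 500 kb away or of another span were not looked for. Of the 5 B73 members with neither, 0 had a peak in both replicates, against 23.1% of all Zm models. Of the 8 such Mo17 members, 4 had one, against 22.9% of all Zm models: Zm00014a_014255, Zm00014a_043585, Zm00014a_011610 and Zm00014a_040496. These 4 models were at 0 in both total RNA libraries, between 5.42 and 17.5 in the polysome libraries, and had an m6A summit in both m6A replicates. The nearest feature of Zm00014a_014255 was 280 bp away, with RNA of 15.5 and 15.4. That of Zm00014a_011610 was 1158 bp away (69.1 and 66.5), and that of Zm00014a_040496 1795 bp away (31.4 and 30.2). That of Zm00014a_043585 was 122865 bp away, at 0 in RNA. At a −log10 q of at least 10, only Zm00014a_011610 kept a peak in both replicates. The lines were not compared by a test.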

How the data were processed

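Per the submitters' processing notes, Trimmomatic 0.35, HISAT2 and MACS2 were used, with the build B73 RefGen_v4. Not given in the sources used here: the build for Mo17, the FPKM tool, its strand setting and how multiply aligned reads were counted. The authors deposited 1 FPKM table per RNA and polysome sample, and 1 peak list per m6A sample with a fold (a ratio), a −log10 p, a −log10 q, a score and a summit per peak. The deposited lists are named as IP against CK, the label of the RNA-seq samples.

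Features whose span differed between libraries were left out (1 in B73, 2 in Mo17). Thresholds, overlaps (at least 1 bp), clusters and peak assignment were computed in Python 3.11.15 with pandas 2.3.3. On simulated tables all 200 planted members and 500 planted peaks per line were recovered. Planted members lay inside the limits, other models well outside, and planted peaks in a single span. This checks the code alone, not overlapping models or values near the limits. The members and lists were chosen with earlier results of these data known. All 27 members are named; planned gene lists by function could not be made, as 0 Zm identifiers matched the reference table. No sequences were used here.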

Additional observations from a re-analysis of the deposited data

Results flagged for a closer look

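The share of polysome-only models with an m6A peak stood below that of all Zm models in both B73 replicates, by −8.01 and −8.00 percentage points, and above it in both Mo17 replicates, by 14.8 and 15.8 points. This stands out because the lines moved in opposite directions; the difference was not tested, and its directions turn with the peak settings. With any overlap of a peak counted, B73 members stood at 33.3% against 24.4% of all Zm models, and at a −log10 q of at least 10 at 16.7% against 15.4%. In Mo17 the share at that −log10 q was 6.67% of members, below the 14.0% of all Zm models. A single gene is worth 8.33 points in B73 and 6.67 points in Mo17. Against the other models with RNA under 1, members had the higher share in both lines, under these settings too. Those other models had a median of mean polysome FPKM of 0 in both lines, so this contrast also holds a difference in polysome level.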

How the results depend on the processing

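The number of polysome-only models depended on the limits, more so in B73 (12) than in Mo17 (15). In B73 it was 52 with RNA under 2, 123 with polysome FPKM of at least 2, 5 with at least 10, 36 with limits on the means, and 7 without members that overlap a feature. Scaling to an equal sum over Zm models left 6, and median of log ratios scaling 7; both left out Zm00001d045578. In Mo17 it was 47 with polysome FPKM of at least 2 and 3 with at least 10, and between 14 and 22 under the other planned settings that keep all libraries, apart from 11 without overlapping members. Leaving out 1 library gave 20 to 40 models in B73 and 20 to 35 in Mo17. Leaving out members inside a same-strand model gave 10 and 15, and leaving out those with a like-span neighbour 10 and 10, both chosen after the data had been seen.

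Members with a peak in both m6A replicates numbered 4 in B73 when any overlap of a peak counted (2 in the other settings), and 1 in Mo17, Zm00014a_011610, at a −log10 q of at least 10 (6 in the main setting, 5 with peaks of at least 5-fold and 8 when any overlap counted). With a single m6A replicate they stayed at 2 and 6. No member lay in a cluster at gaps of 20, 100 or 500 kb. No paired analysis was possible because no model was fitted to which a replicate block could be added. FPKM carry no depth, so the number of reads behind a value near 5 is not known.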

Other observations

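The reverse pattern, RNA FPKM of at least 5 and polysome FPKM under 1 in both libraries, was more frequent at these limits. With 10 in place of 5 this order held in B73 (43 Zm models against 5 polysome-only) but not in Mo17 (2 against 3). At the limits of 5 and 1 the reverse pattern held for 67 Zm models and 95 other features in B73, and for 31 Zm models in Mo17. The B73 models of this kind had a median span of 73 bp and the Mo17 models one of 2006 bp. A peak in both m6A replicates was found in 0 of 67 and 3 of 31 (9.68%), against 23.1% and 22.9% of all Zm models. Among all B73 Zm models under 1000 bp the share was 0.692%, so the 0 of 67 is not read as a trait of the reverse pattern.

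With lower polysome limits there were more polysome-only models in B73 than in Mo17. The lines are not like for like here, since the Zm sums of RNA and polysome libraries differed more in B73. With a polysome limit of 1 there were 522 in B73, of which 40 were at 0 in both RNA libraries, and 184 in Mo17, of which 47 were. With a limit of 2 the numbers were 123 and 47, with 20 and 26 at 0. Peaks in both m6A replicates were present in 39.8% and 25.5% of the models at this limit, against 23.1% and 22.9% of all Zm models. At the limit of 1 the shares were 30.3% in B73 and 13.6% in Mo17, the latter below that of all Zm models.

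RNA under 1 in both libraries with a polysome FPKM of at least 5 in exactly 1 library was seen for 36 models of B73 and 12 of Mo17. Of these, 11 and 7 were listed at 0 in the other polysome library.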
